A study of Mus musculus with 13 samples.

Results

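The reads of 4 sprout libraries, out of 13 libraries in the series, were available in 2 kinds of count. HTSeq counted a read only where it aligned to a single place in the genome, and RSEM divided each read that aligned to several places among the genes it could have come from. The 4 libraries were chosen because both tables exist for them, 2 from Apln STOP and 2 from Apln GO cells, and the comparison covered the 24411 gene symbols present in both tables. A further 10 symbols stood in the HTSeq tables alone and held 0 reads in every library. All 4 libraries were made from CD31+ endothelial cells (ECs), sorted by FACS out of sprouting embryoid bodies (EBs), which are cell aggregates grown here from female haploid-derived mouse embryonic stem cells (mESCs) labelled C57BL/6x129. Apln STOP cells carried a Tol2 gene trap in sense orientation in Apln, the gene of the secreted peptide Apelin, and Apln GO cells were sister cells in which Cre, delivered on a retroviral vector, had turned the trap around. EBs of both groups were placed in collagen I gel on day 8 with VEGFA164 at 30 ng/ml. The GO EBs also received Apelin at 1000 nM and the STOP EBs its solvent DMSO, so that genotype and added peptide cannot be told apart. How many independent trapped lines were used is not given in the sources used here. Nothing in the labels states that the replicates came from separate cultures, so p-values measure only the spread between these libraries.

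A short read identifies its gene only where the gene's sequence is unique over the length of the read. Genes with many retrotransposed copies in the genome, most of them processed pseudogenes of abundant housekeeping mRNAs, and genes in tandem arrays of recent duplicates share long identical stretches, and a read from such a stretch aligns equally well to several places. A counter that keeps unique reads drops it, whereas an expectation-maximization counter such as RSEM assigns fractions of it according to the reads that do distinguish the transcripts.

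These stretches show the range of sequence sharing that the counts met. Each line gives 60 bases from the middle of a coding exon of the first gene and the aligned bases of its relatives, 5′ to 3′ on the coding strand, with capitals at the bases that differ from the first line. The first set shows Gapdh (chr6:125163258-125163317, minus strand, GRCm38) beside Gm7336, a processed pseudogene (chr7:51746839-51746898, plus strand), which had 0 differences, so that no 50-base read from this stretch could tell the genes apart.
Gapdh: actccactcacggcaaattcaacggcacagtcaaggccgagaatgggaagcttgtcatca
Gm7336: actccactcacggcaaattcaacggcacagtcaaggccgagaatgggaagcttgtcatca
The adult alpha globin genes Hba-a1 (chr11:32283996-32284055, plus strand) and Hba-a2 (chr11:32296813-32296872, plus strand) are shown as a tandem pair that was also identical here.
Hba-a1: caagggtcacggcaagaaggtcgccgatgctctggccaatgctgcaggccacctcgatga
Hba-a2: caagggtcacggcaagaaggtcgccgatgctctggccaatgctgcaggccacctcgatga
The cytoplasmic actins Actb (chr5:142904534-142904593, minus strand) and Actg1 (chr11:120347101-120347160, minus strand) are shown as a pair that encodes nearly the same protein from differing bases, 5 of them in this stretch.
Actb: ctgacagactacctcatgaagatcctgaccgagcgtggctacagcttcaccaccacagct
Actg1: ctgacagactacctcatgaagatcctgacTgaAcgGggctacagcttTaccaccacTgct
The X-linked Xlr5a (chrX:73112222-73112281, minus strand), Xlr5b (chrX:73154216-73154275, plus strand) and Xlr5c (chrX:73287499-73287558, minus strand) are shown as a recent cluster in which the other copies differed from Xlr5a at 2 bases and not from each other.
Xlr5a: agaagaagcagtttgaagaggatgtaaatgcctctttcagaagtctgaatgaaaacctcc
Xlr5b: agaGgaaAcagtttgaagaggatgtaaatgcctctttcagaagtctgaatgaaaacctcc
Xlr5c: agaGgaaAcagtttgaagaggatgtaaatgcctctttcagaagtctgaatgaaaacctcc

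The 4 libraries held 12327030 to 16804071 unique reads on genes and 15930619 to 20914111 expected counts. RSEM therefore gave 1.31 and 1.32 times the unique total in STOP replicates 1 and 2, and 1.24 and 1.29 times in GO replicates 1 and 2. The surplus made up 23.9%, 24.3%, 19.7% and 22.6% of the expected counts, in the order STOP 1, STOP 2, GO 1, GO 2, which is kept for every list of 4 values here, and it was larger in both STOP libraries. Reads that HTSeq set aside because genes overlapped came to 0.279% to 0.299%. The endothelial markers of the sort (Pecam1, Cdh5, Kdr, Tie1, Tek, Emcn, Esam and Egfl7) were all detected and summed to 519, 727, 2183 and 2057 CPM (unique reads scaled by library size with TMM factors). Pluripotency markers summed to more than the endothelial ones in 3 of the 4 libraries, at 5225, 5069, 1905 and 3189 CPM, and fibroblast or mural markers to 449, 2508, 2730 and 588 CPM, which separated the replicates within both groups. Apln itself was not lower in STOP, with 976, 984, 986 and 817 unique reads, 971, 978, 969.9 and 807 expected counts and a log2 fold change of STOP over GO of 0.24 (SE 0.16) by the former and 0.23 (SE 0.15) by the latter. No 50-base stretch of Apln occurred in another gene.

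Most genes had nearly the same count either way, and a minority gained several-fold. Of the 14427 genes with a mean of at least 10 in both tables, 78.8% differed by no more than 10%, and the median ratio of expected counts to unique reads was 0.997. A gene was called gaining where its expected counts, summed over the 4 libraries, were at least 2 times its unique reads and averaged at least 10 per library, a definition that uses no group label. By it 1710 of 15371 genes gained, or 11.1%, and 242 of these had 0 unique reads in all 4 libraries. Of the surplus summed over genes with more expected counts than unique reads, the 1710 genes held 81.8%, and the 10 genes with the largest surplus held 15.1% of it. Among the 860 gaining genes that averaged at least 10 unique reads, the log2 gain had a median SD over the 4 libraries of 0.154. Ratios are of counts as deposited. With each table scaled to CPM, with TMM factors, the median gene falls to a ratio of 0.772, a shift of -0.37 on the log2 scale, and 1455 genes gain.

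**Figure D1:**
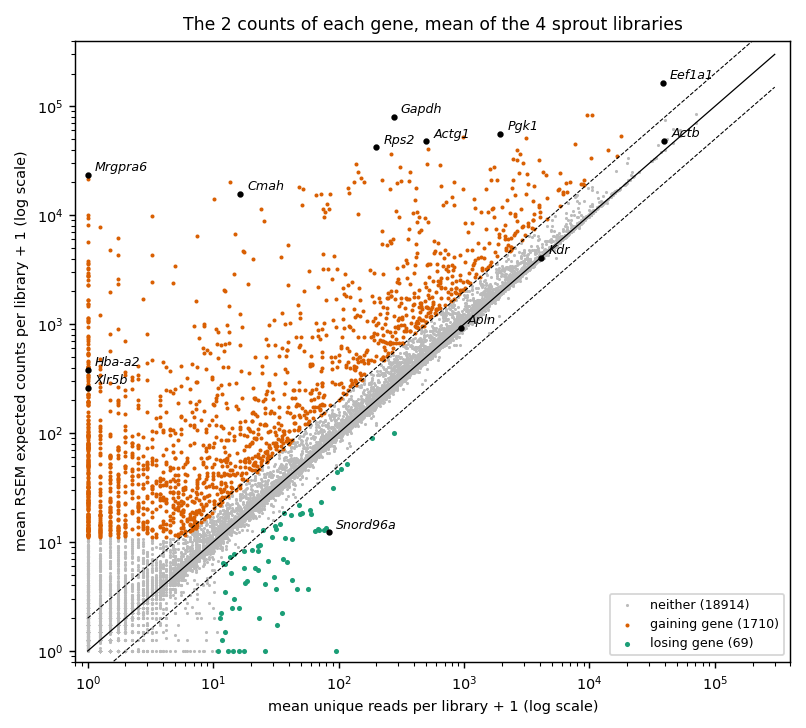
Mean unique reads (x axis) against mean RSEM expected counts (y axis) per gene over the 4 sprout libraries, both plus 1 and on log scales, with the line of equality and dashed lines at 2 times either way. The 1710 gaining genes (orange) reach from genes with 0 unique reads, such as Mrgpra6, to Eef1a1 at the top, while Kdr and Apln lie on the line of equality.

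What moved with the gain was the share of a gene's sequence that also occurs in annotated transcripts of other genes. All 50-base windows of the GENCODE transcripts of each gene, of the same length as the reads, were searched on both strands in the transcripts of all other genes, and 99.1% of the symbols could be matched. Gaining genes shared a median of 25.9% of their windows and all other genes with a mean of at least 10 a median of 0%. Even so, 596 of 1677 gaining genes (35.5%) shared under 10% of their windows, against 84.9% of 13622 other genes. The proportion of genes that gained rose with the shared part, from 2.04% of the 7567 genes that shared no window to 9.61%, 16.5%, 35.2%, 58.7% and, among genes that shared over 75%, 69.7%. A shared window was neither needed nor enough, since 154 genes gained without one, among them Tor4a and, chosen after their values were seen, Ogdh, Tmem206 and Wdr92, and in the highest class 302 of 433 genes gained. Only annotated transcripts were searched, so copies and repeats outside them were not seen. Windows shared with a gene at the same locus were counted too, and there a read can still align to a single place. The gene sharing most windows overlapped the locus of 364 of the 1710 gaining genes and of 4001 of all 15371. By transcript type, 81.5% of 54 processed pseudogenes with a mean of at least 10 gained, against 54.4% of 241 lincRNAs, 46.7% of 165 antisense genes and 8.98% of 14512 protein-coding genes. Chromosome X had the highest share of gaining genes, 108 of 615 or 17.6%, and chromosome 6 the lowest, 7.71%.

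**Figure D2:**
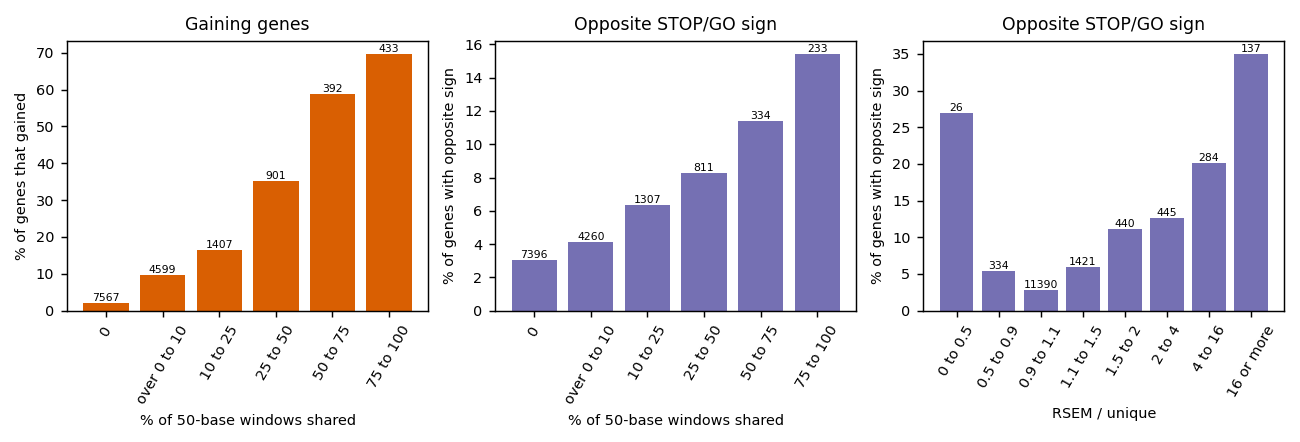
Left, the percentage of genes that gained, by the percentage of their 50-base windows found in other genes. Middle and right, the percentage of genes whose STOP over GO fold change had opposite signs in the 2 counts, by shared windows and by the ratio of expected counts to unique reads. Numbers above the bars are genes. The opposite share rose from 3.02% with no shared window to 15.5% above 75%, and was 35.0% for ratios of 16 or more.

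Genes of the translation machinery took the largest part of the surplus. The cytosolic ribosomal proteins, the protein subunits of the ribosome and the classic source of processed pseudogenes, gained 5.14, 5.19, 5.17 and 5.16 times, the least variable of the large gains (5.17 ± 0.019, SD, n = 4). In this family 76 of 89 genes gained, and it held 29.3% of the net surplus (all expected counts minus all unique reads), which lifted it from 2.04% of unique reads to 8.18% of expected counts. Rps2, a small-subunit protein, had 245, 136, 220 and 194 unique reads and 49209.9, 39003, 43048 and 37304 expected counts, a ratio of 212. Rpl3, a large-subunit protein, was better covered by unique reads, at 3148, 2446, 2639 and 2437, and still rose 14.8 times to 43961, 37393, 40082 and 36308 expected counts. Both genes shared most of their windows (79.0% and 85.6%) with annotated copies. The mitochondrial ribosomal proteins, whose function is the same but in the mitochondrion, were at 1.14 times in every library and at 0.880 on the CPM scale. In this family 9 of 77 genes gained (11.7%), against 11.1% of all genes.

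Among translation factors 11 of 65 gained and the ratio was 1.77 ± 0.024. Eef1a1, the factor that delivers aminoacyl-tRNA to the ribosome, had the largest surplus of all factors, from 42960, 35736, 41092 and 34073 unique reads to 178579, 151219, 181303 and 146399 expected counts. Its tissue-restricted relative Eef1a2 stayed at 0.988 times with 0% shared windows. Symbols that end in -ps, given to pseudogenes, gained 15.0, 17.8, 11.01 and 13.0 times, and 26 of 39 gained. Rpl34-ps1 had 0 unique reads in each library and 9702, 9580.3, 9533 and 8627 expected counts, whereas the parent gene Rpl34 had 157, 110, 129 and 95 unique reads and 1195, 810.1, 957 and 834 expected counts. RSEM thus placed more reads on the copy than on the parent in this pair, and likewise on Gm15772 (25350.2, 24511, 22298 and 21421 expected counts, 0 unique reads) over Rpl26 (215, 173, 150.3 and 193 expected counts) and on Rps27rt (8720.0, 8114, 8496 and 7535, 0 unique reads) over Rps27 (80.9, 55.5, 77.8 and 53.8). Rpl34 and Rpl26 were named after their values were seen.

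Enzymes and other housekeeping genes with many processed copies formed the next group. Glycolysis enzymes gained 2.95 ± 0.10 times and held 7.22% of the net surplus, yet only 5 of their 22 genes gained. Gapdh, the glyceraldehyde-3-phosphate dehydrogenase often used as a reference gene, had 392, 238, 272 and 193 unique reads against 96478, 78838, 78154 and 66751 expected counts, a ratio of 292, and shared windows with 222 other genes. Pgk1, which makes the first ATP of the pathway, rose from 2863, 2029, 1583 and 1296 unique reads to 78154, 62704, 46189 and 38128 expected counts. Eno1, an enolase, had 25, 12, 11 and 3 unique reads and 28414, 20776, 19186 and 12506 expected counts, a ratio of 1586. Its copy Eno1b held more of either count, 1365, 967, 846 and 765 unique reads and 65345, 52536, 46099 and 45434 expected counts. The 2 transcripts share a run of 751 bases, and the share of the pair given to Eno1 rose from 1.28% of unique reads to 27.9% of expected counts.

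Of 49 other housekeeping genes with processed copies 24 gained, with a ratio of 2.36 ± 0.15 and 8.47% of the surplus. Ppia (cyclophilin A) had 532, 647, 519 and 372 unique reads and 47016, 44687, 36808 and 33559 expected counts, and Ptma (prothymosin alpha) 3873, 3067, 2866 and 2695 and 63219.9, 53654, 48220.2 and 40968. The respiratory chain and ATP synthase were at 1.26 ± 0.014 times, and at 0.973 on the CPM scale. Of their genes 14 of 97 gained (14.4%), against 11.1% of all genes. Cox7c, a cytochrome oxidase subunit, still rose 137 times and Atp5g2, an ATP synthase subunit, 276 times. Proteasome subunits were at 1.18 ± 0.0086, and at 0.913 on the CPM scale, with 6 of 50 genes gaining (12%), also near the share of all genes.

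**Figure D3:**
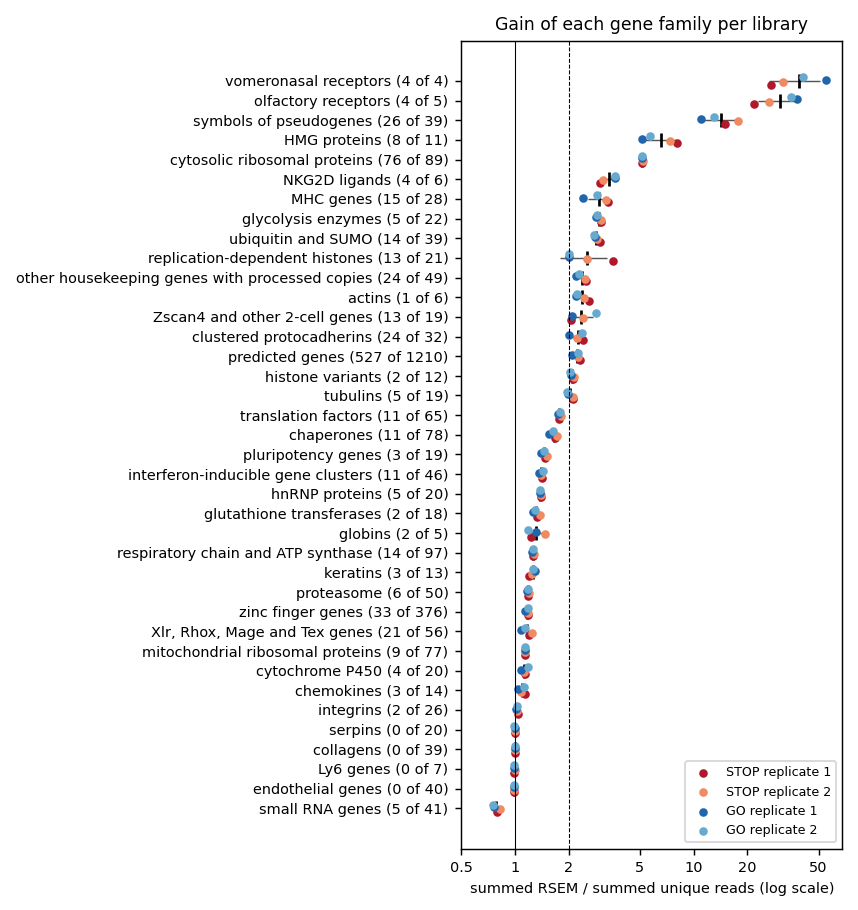
Summed RSEM expected counts over summed unique reads (log scale) in each of the 4 libraries for families with at least 4 members averaging 10 expected counts, with the mean (tick) and SD (bar) over the libraries. In brackets are gaining members of all such members. Sensory receptors, pseudogene symbols, HMG and ribosomal proteins lie at the top, and collagens and endothelial genes at a ratio of 1.

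In the cytoskeleton the share of each paralogue in a pair differed between the 2 counts. Actg1 (gamma actin) had 658, 381, 528 and 430 unique reads beside the 36192, 34410, 50811 and 37180 of Actb (beta actin), and 52448, 43937, 54655 and 39195 expected counts beside 43949, 41752, 61783 and 44963, so that the share of Actb in the pair fell from 98.8% of unique reads to 50.3% of expected counts. The longest run that the transcripts of this pair share is 62 bases. Actg1 shares most windows, 51.1%, with the processed pseudogene Gm12715, and where the added reads aligned was not tested. In the alpha tubulins, the share of Tuba1a in the pair with Tuba1b fell from 70.0% to 34.6%, with 3086, 2502, 2341 and 1931 unique reads and 40667, 34045, 30756 and 25016 expected counts on Tuba1b. Tubulins as a whole gained 2.04 ± 0.081 times, with 5 of 19 genes. Keratins, the filaments of epithelia, were at 1.25 ± 0.043 times, and at 0.980 on the CPM scale. They were led by Krt8 at 2.4 times, which has a -ps copy.

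Among chromatin genes, the gains of HMG proteins and replication-dependent histones differed between libraries. The HMG proteins, small DNA-bending and nucleosome-binding proteins, gained 8.04, 7.34, 5.11 and 5.73 times, higher in both STOP libraries, and 8 of 11 gained. Hmgb1 had 442, 346, 413 and 355 unique reads and 11209, 9584, 11564 and 9329.5 expected counts. Hmga2, named after its values were seen, gained only 1.41 times, and with 961, 849, 5085 and 2756 unique reads it was high in GO. It made up more of the family sum among unique reads than among expected counts, and the sum was higher in GO by unique reads (log2 -0.30) and higher in STOP by expected counts (0.18), without overlap of the groups either time. Replication-dependent histones, whose arrays of near-identical genes lack introns, gained 3.55, 2.54, 2.00 and 2.02 times with 13 of 21 genes. Hist1h2ap had 0 unique reads and 509.7, 506, 396 and 309.6 expected counts. Histone variants gained 2.09 ± 0.045 times, much alike in the 4 libraries, and 2 of 12 genes gained, H2afz (25.7 times) and H3f3a (31.8 times), while H3f3b, which encodes the same protein as H3f3a, was at 1.91.

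Protein quality control genes were split in the same way. Chaperones gained 1.65 ± 0.071 times with 11 of 78 genes (14.1%, against 11.1% of all genes). Hspa8, the constitutive HSP70, rose from 11540, 9800, 9045 and 7545 to 98596, 84681, 80280.1 and 66484. The share of Hsp90aa1 in the pair with Hsp90ab1 rose from 12.9% to 49.5%, although the longest run they share is 33 bases, shorter than a read. Ubiquitin and SUMO genes gained 2.86 ± 0.098 times with 14 of 39 genes. Ubb, a polyubiquitin gene, rose 16 times. Sumo2 had 15, 9, 17 and 15 unique reads and 7643, 6905, 6472 and 5752 expected counts while its paralogue Sumo3 stayed at 1.06 times, which took Sumo2 from 0.668% to 75.2% of the pair. The longest run these 2 transcripts share is 17 bases, shorter than a read.

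Paralogues differed in how long a sequence they shared. Of 29 pairs of paralogues examined, 17 shared no run as long as the 50-base reads and 12 did. Hspa1a and Hspa1b, the inducible HSP70 genes, share a run of 638 bases, and the part of the pair given to Hspa1a ran from 18.0% to 39.8% over the libraries. For Zscan4c and Zscan4f, of a family expressed at the 2-cell stage and in a fraction of mESCs, the part of Zscan4c ran from 23.7% to 36.8%. Cks1b, a cyclin-dependent kinase subunit, fell from 91.7% of its pair with Cks2 to 45.02%. Ftl1, the ferritin light chain, rose from 58.1% to 87.8% of its pair with the heavy chain Fth1. The longest shared run was 17 bases in the Cks pair and 13 in the ferritin pair, both shorter than a read.

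The order of genes by abundance depended on the count. On the scale of mean counts per base of transcript, over genes of at least 200 bases, Gapdh stood at rank 5672 by unique reads and rank 4 by expected counts. Ppia moved from rank 1705 to 5, Rps18 from 4484 to 6 and Rps2 from 5890 to 13. The noncoding imprinted transcript H19, chosen after its values were seen, went the other way, from rank 1 to 43 with 24388, 46874, 147143 and 63524 unique reads and a ratio of 0.999. Dppa5a, a pluripotency gene of mESCs, stood at 7 and 3, and Eef1a1 at 9 and 1.

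Genes in tandem clusters gained as well. Of the Zscan4 and other 2-cell genes 13 of 19 gained, with ratios of 2.07, 2.39, 2.09 and 2.85, and the 5 Zscan4 genes together had 145, 167, 152 and 236 unique reads and 1376, 1316, 1193 and 1885 expected counts. In the list of Xlr, Rhox, Mage and Tex genes, germline and X-linked genes with many copies, 21 of 56 gained. All 21 lay on chromosome X, as did 39 of the 56. Xlr5b had 0 unique reads in each library and 352, 509, 87.1 and 94.3 expected counts, and shared 90.2% of its windows. Among the clustered protocadherins, neuronal adhesion molecules whose alpha and gamma isoforms share 3′ exons, 24 of 32 gained and the ratio was 2.25 ± 0.19. A read on such a shared exon can align to a single place and be set aside by HTSeq because genes overlap there. Where the added reads of this family lay was not tested. MHC genes gained 3.32, 3.22, 2.41 and 2.89 times with 15 of 28 genes, while the classical class I gene H2-K1 stayed at 1.06 times. Ligands of the immune receptor NKG2D, read at 3.35 ± 0.33 with 4 of 6 genes gaining, and the interferon-inducible clusters, at 1.41 ± 0.034 with 11 of 46, belonged to the same kind. Globins were at 1.30 ± 0.13, with only the adult alpha pair gaining, and the embryonic globins Hba-x, Hbb-y and Hbb-bh1 had ratios of 0.992, 1.01 and 0.9.

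Some of the largest ratios fell on genes with hardly any unique reads and few shared windows. Mrgpra6, a receptor of sensory neurons, had 0 unique reads in each library and 26611, 19595, 22428 and 25591 expected counts, and only 7.96% of its windows occurred in other genes. Cmah, a sialic acid hydroxylase, had 20, 16, 11 and 15 unique reads and 24614, 12628, 13505 and 12339 expected counts with 4.44% of its windows shared. Tyr, the tyrosinase of melanocytes, had 1, 0, 1 and 0 unique reads and 1164, 895, 439 and 762 expected counts. Cmah and Tyr were chosen after their values were seen. Of 329 vomeronasal and 1107 olfactory receptor genes only 4 and 5 averaged at least 10 expected counts, and 4 of each gained, led by Vmn1r58 (858, 644, 802 and 730.0 expected counts, 0 unique reads) and Olfr613 (1721, 1448, 1588 and 1852, 0 unique reads). Where these reads aligned was not tested. Other genes among those with a mean of at least 100 expected counts and the highest gain (log2 ratio of the sums, each plus 2) were Gm6793, Gm10052, Gm17821, Gm15772, Rps27rt, Rpl34-ps1, Atp6v0c-ps2 and Dpm1-adnp, each with at most 1 unique read in any library. Of their windows, Dpm1-adnp shares 99.1% with other annotated genes, first with Adnp, whose locus overlaps its own. Gm10052 shares 100%, Hnrnpa1 first, and Gm6793 shares 80.1%, Hnrnpa3 first.

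Fewer genes lost counts. In 69 genes the expected counts were at most 0.5 times the unique reads with a mean of at least 10 unique reads, and 57 of them were small RNA genes, such as snoRNAs, which guide the modification of other RNAs and lie in introns of host genes. Of the 69 genes 58 were shorter than 200 bases. Snord22 fell from 346, 209, 288 and 252 unique reads to 129, 74, 103 and 89.2 expected counts and Snord96a from 81, 45, 103 and 102 to 11, 11, 16 and 7, and both lie wholly within windows of their host genes Snhg1 and Rack1. AF357359 had 48, 58, 185 and 85 unique reads and 0 expected counts in each library. Longer genes with a large deficit overlapped a neighbour, as Sco2, a cytochrome oxidase assembly factor, with Tymp (104, 90, 146 and 125 unique reads, 43.1, 38.0, 77.7 and 43.8 expected counts), and Phospho1, a phosphatase of mineralizing tissue, with Zfp652 (211, 189, 184 and 154 and 128, 119, 71.5 and 38.7).

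The STOP against GO comparison was made with each count in turn to see whether its direction depends on the count. With unique reads, 441 of 14557 genes decreased and 124 increased in STOP (edgeR quasi-likelihood test, adjusted p under 0.05 and an absolute log2 fold change over 1), which is 3.03% and 0.852%, or 3.88% in all. With expected counts, 365 of 15523 decreased and 104 increased, 2.35% and 0.67%, or 3.02% in all. Both numbers of calls depended on single libraries. Without STOP replicate 1 there were 148 calls with unique reads and 2 with expected counts, without GO replicate 1 there were 154 and 26, and without GO replicate 2 there were 887 with unique reads. Of the 67 genes called with expected counts among those named or meeting the naming rule, 66 lost their call without STOP replicate 1. Both groups hold only 2 libraries, so an exact two-sided permutation test of a single gene could not go below p = 0.333.

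Changes of direction were more frequent among gaining genes. Of the 14477 genes tested with both counts, 633 (4.37%) had fold changes of opposite sign, and in 77.7% of these the larger of the 2 log2 fold changes was under 0.2 in size. Of the 866 gaining genes tested with both, 161 changed sign (18.6%), against 465 of 13584 genes that neither gained nor lost (3.42%), and in 47.8% of the 161 the larger fold change was under 0.2 in size. No gene was called in opposite directions, a count of 0 that held in each alternative run. The share of sign changes rose with the ratio, from 2.75% of genes within 0.9 to 1.1 times to 12.6% between 2 and 4 times, 20.1% between 4 and 16 and 35.0% from 16 times. Unique reads are the denominator of this ratio, and the classes were not matched by them. The part of counting error at few unique reads was therefore not tested. Of the gaining genes 115 (13.3%) moved by over 0.5 in log2 fold change, against 72 (0.530%) of those that neither gained nor lost. Calls were not more frequent among gaining genes than among all genes: 14 of 866 were called with unique reads (1.62%) and 29 of 1702 with expected counts (1.70%).

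The direct test of the difference gave no call. It compared the log2 ratio of expected counts to unique reads between STOP and GO with limma, and 0 of 15455 genes (0.0%) passed at an adjusted p under 0.05 and a difference over 0.5. At an unadjusted p under 0.05 there were 897 genes, 511 with the larger gain in STOP and 386 in GO. The smallest adjusted p was 0.0543, for the ribosomal protein gene Rps6, named after its values were seen, whose gain was 0.37 higher in STOP on the log2 scale. This test concerns the size of the shift and not a change of sign. With 2 libraries per group, the lack of calls cannot show that the direction of a gene is free of the count used.

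**Figure D4:**
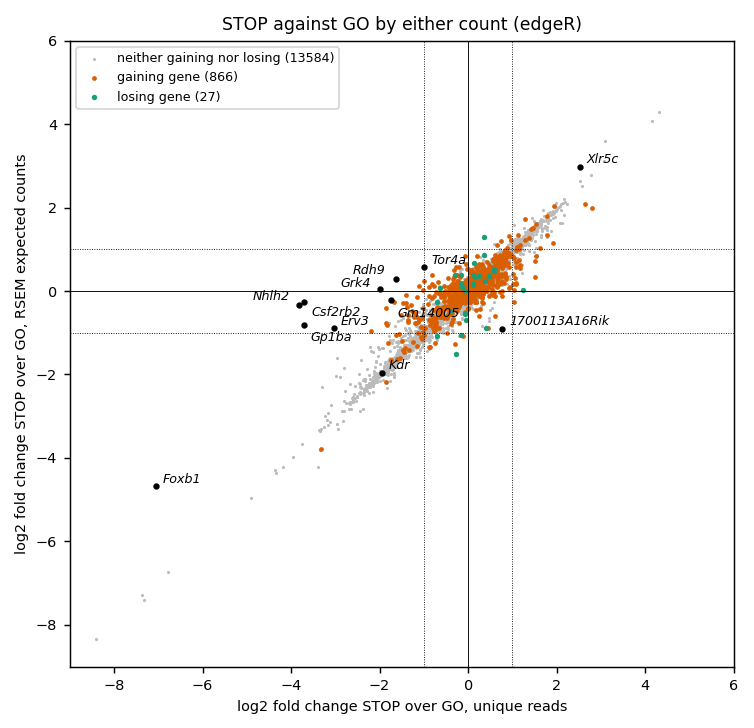
Log2 fold change of STOP over GO by unique reads (x axis) and by RSEM expected counts (y axis) for the genes tested with both, dotted lines at 1 and -1. Gaining genes (orange) spread around the diagonal near 0. Labelled genes include the 10 that moved most. Of these, Nhlh2, Csf2rb2 and Gp1ba lie far left by unique reads. By expected counts Nhlh2 and Csf2rb2 lie near 0 and Gp1ba at -0.80, while Kdr lies on the diagonal.

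Most of the genes that moved most had few unique reads. Nhlh2, a transcription factor of neurons, had 1, 1, 14 and 19 unique reads, low in both STOP libraries and high in both GO libraries. Its expected counts, 10.2, 46.0, 34.5 and 42.5, overlapped between the groups. The fold change went from -3.82 (SE 0.85), with an adjusted p of 0.0414 by edgeR, to -0.33 (SE 0.78) with an adjusted p of 0.821. Csf2rb2, a cytokine receptor subunit, had 0, 2, 14 and 17 unique reads and 121, 88.2, 139 and 124 expected counts. Its groups did not overlap with either count, and its fold change went from -3.71 to -0.26. Gp1ba, a platelet receptor subunit, had 2, 0, 16 and 15 unique reads and 70, 39, 97 and 99 expected counts. Neither count overlapped between its groups, before or after scaling to CPM, and the fold changes were -3.72 and -0.80. Grk4, a kinase of G protein-coupled receptors, had 5, 5, 30 and 15 unique reads and 3251, 2559, 2896 and 2925 expected counts, and a fold change of -1.99 by the former and 0.06 by the latter. Csf2rb2, Gp1ba and Grk4 did not pass the test with either count.

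The predicted gene Gm14005 had 24, 28, 112 and 81 unique reads and 165, 143, 200.02 and 179 expected counts and was called with unique reads alone, its fold change moving from -1.75 (SE 0.37) to -0.22 (SE 0.24) (edgeR adjusted p 0.0344 and 0.603). Foxb1, a forkhead factor of the nervous system, kept its call at 0, 0, 18 and 16 unique reads and 0, 1.42, 19.8 and 14.03 expected counts, and fitted fold changes of such low counts depend on the prior count. Erv3, of retroviral origin, was highest in GO replicate 1 with either count, at 18, 6, 217 and 18 unique reads and 109, 53.5, 265 and 70.7 expected counts. Rdh9, a retinol dehydrogenase, moved from -1.63 to 0.28.

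Only 3 genes had fold changes over 0.5 in size in both counts and opposite directions. Tor4a, a torsin-family ATPase, had 159, 146, 458 and 225 unique reads, lower in both STOP libraries, and 2609.9, 1968, 1555 and 1641 expected counts, higher in both. Its fold change was -0.998 (SE 0.26) by unique reads and 0.57 (SE 0.18) by expected counts, with adjusted p of 0.059 and 0.11 by edgeR, so neither direction passed. 1700113A16Rik had 37, 24, 20 and 18 unique reads and 115, 111, 263 and 190 expected counts, with 0.77 (SE 0.45) and -0.90 (SE 0.24). It shares 51.4% of its windows with another gene, Mef2d, whose locus overlaps its own. The last of them was Dnase1 (0.61 and -0.59), named after its values were seen. H2-T23, a nonclassical MHC class I gene with 16, 20, 30 and 13 unique reads and 5979.8, 4076, 2452 and 3267 expected counts, moved from -0.08 to 0.84, and Slfn5, an interferon-inducible gene, from -0.83 to 0.40. In both, neither value passed the test.

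Whole families mostly kept their direction. In the cytosolic ribosomal proteins 22 of 87 genes changed sign (25.3%), the median log2 fold change went from 0.23 to 0.20, and the number of genes higher in STOP rose from 66 to 84. Summed over the family, STOP was higher with either count (0.23 and 0.20). Sums of the pseudogene symbols, like those of the HMG proteins, turned over: they were higher in both GO libraries by unique reads (log2 -0.28) and higher in both STOP libraries by expected counts (0.13). Replication-dependent histones went from -0.44, without overlap, to 0.07 with overlap, vomeronasal receptors from 0.75 to 0.06 and olfactory receptors from 0.49 to -0.13, on 45, 28, 20 and 25 and on 91, 66, 59 and 59 unique reads. Glycolysis enzymes stayed higher in STOP at 0.38 and 0.44, pluripotency genes at 0.89 and 0.92, and protocadherins lower at -1.18 and -1.11. Summed pluripotency markers, at 5225 and 5069 CPM in STOP and 1905 and 3189 in GO, were higher in both STOP libraries, as the ribosomal protein and glycolysis sums were, and their part in the values was not tested.

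Endothelial genes had the same calls with both counts when all 4 libraries were used. None of the 40 genes of that list gained, the ratio was 0.992, 0.992, 0.987 and 0.986, and the same 31 decreased with both counts, or 77.5% against 3.03% and 2.35% of all genes. Without STOP replicate 1 the decreased genes of the list numbered 33 with unique reads and 0 with expected counts, and without GO replicate 1 there were 22 and 11, while 39 of 40 were lower in STOP in each fit. Fewer ECs among the sorted cells and less RNA of these genes per cell cannot be told apart in such libraries. Kdr, the main VEGF receptor, had 1441, 1652, 8384 and 4996 unique reads and 1429, 1658, 8274 and 4906 expected counts, and fold changes of -1.95 (SE 0.20) and -1.96 (SE 0.21) with edgeR adjusted p of 0.00437 and 0.0111. Aplnr, the receptor of Apelin, had 230, 128, 1248 and 621 unique reads and 225, 121, 1224 and 589 expected counts, and fold changes of -2.25 (SE 0.27) and -2.28 (SE 0.31). The groups did not overlap for either gene. Collagens, at a ratio of 0.998 ± 0.00056, were as little affected.

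In 9 gaining genes the call was the same with both counts. Increased in STOP were Dppa5a (1.28 by unique reads and 1.21 by expected counts), Bex4, Mageb16, Pnma3, Xlr3a, Xlr5a and Slc25a5, the ADP/ATP carrier of mitochondria (1.17 and 1.12). Decreased were Rgs3, a regulator of G protein signalling (-1.54 and -1.60), and Tnfrsf23, a decoy receptor of TRAIL (-1.63 and -1.04). With unique reads alone 5 gaining genes were called, Nhlh2, Gm14005, Ccdc82, Gm13247 and Gstp2, and with expected counts alone 6, Apoo, Cxx1a, Pcdhgb6, Tax1bp3, Xlr and Xlr5c. Among all 14477 genes tested with both counts, 432 were called by both, 133 by unique reads alone and 21 by expected counts alone. Of the 14477 genes, 13584 neither gained nor lost and 866 gained. The former held 128 of the 133 calls by unique reads alone and 15 of the 21 by expected counts alone. Gaining genes held 5 and 6 of them. Of the 133, 129 had an edgeR adjusted p under 0.1 with expected counts, but only 1 of the 5 gaining ones did. Tax1bp3, a PDZ protein, had 20, 17, 50 and 20 unique reads and 518, 571, 1889 and 974 expected counts, and its fold change of -1.25 (SE 0.23) by expected counts passed (edgeR adjusted p 0.0406) where -0.75 (SE 0.49) by unique reads did not. Genes named in this paragraph other than Dppa5a, Mageb16, Xlr3a, Pcdhgb6, Gstp2, Nhlh2 and Gm14005 were chosen after their calls were known.

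Expected counts brought 1046 genes into the test that had too few unique reads, and 16 of them were called, 6 decreased and 10 increased. This is a smaller share than among all genes tested with expected counts, where 469 of 15523 were called (3.02%). Several of these are copies within 1 array, and their sums did not always show what the single genes did. Gm4302 had 73.0, 36.5, 0 and 0 expected counts and its neighbours Gm4303, Gm4305 and Gm4307 had 0, 0, 22 and 21.0 each, with 0 unique reads in all 4 genes and libraries. Gm4302 was called increased and the other 3 decreased. Yet the 6 genes of this array summed to 99.4, 81.2, 101 and 94.6 expected counts (log2 -0.04), with the groups overlapping. Likewise Gm13040 and Gm13057, each called increased at 105, 126, 41.8 and 20.9 expected counts, share windows with Gm13043, which had 34.3, 65.1, 144 and 285, and the 3 summed to 244, 317, 228 and 327 (log2 0.08), again overlapping. Gm1821, called decreased at 12.1, 13.4, 76.4 and 159.9 expected counts, shares 88.2% of its windows with other genes, Ubb first, and Ubb and Gm1821 together stood at 0.22.

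In other arrays the sum moved as its members did. The Xlr5 genes summed to 71, 80, 15 and 12 unique reads and 768, 1049, 190.0 and 209 expected counts, higher in both STOP libraries with either count (log2 2.62 and 2.28). The Xlr3, Xlr4 and Rhox4 sums were at 1.72, 1.58 and 2.17 by expected counts, also without overlap, and the Rhox4 genes had no more than 8 unique reads in a library. Ass1, the argininosuccinate synthase, and its copy Gm5424 summed to 3273, 2531, 1425 and 1371 expected counts (1.12), with 41, 39, 17 and 21 unique reads. The 5 Zscan4 genes stood at -0.16 with overlap. In the list of Xlr, Rhox, Mage and Tex genes 11 of 57 genes were called increased with expected counts and 8 of 44 with unique reads, against 0.67% and 0.852% of all genes. All 11 lay on chromosome X, as did 39 of the 56 list members averaging at least 10 expected counts. Copies such as Xlr5a and Xlr5c share sequence, so the 11 calls are not separate observations. With expected counts the 11 became 0 without STOP replicate 1, STOP replicate 2 or GO replicate 1. With unique reads the 8 became 1, 3 and 1. Summed pluripotency markers were higher in both STOP libraries as well, and their part in these values was not tested.

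The adult alpha globin pair was divided differently in each library. Neither Hba-a1 nor Hba-a2 had a unique read in any library, and the coding sequences are 99.8% identical with a shared run of 380 bases. RSEM gave Hba-a1 195, 88, 509 and 0 expected counts and Hba-a2 35.5, 0, 642 and 846, so that Hba-a1 held 84.6%, 100%, 44.2% and 0% of the pair. Their sum, 230, 88, 1152 and 846, was lower in both STOP libraries (log2 -2.61). The embryonic globin Hbb-y, with 119, 25, 912 and 611 unique reads, had a fold change of -3.33 (SE 0.67), which did not pass (edgeR adjusted p 0.0828). Blood markers summed to 60.2, 26.5, 193 and 274 CPM, and the list includes Hba-a1 and Hbb-y themselves.

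**Figure D5:**
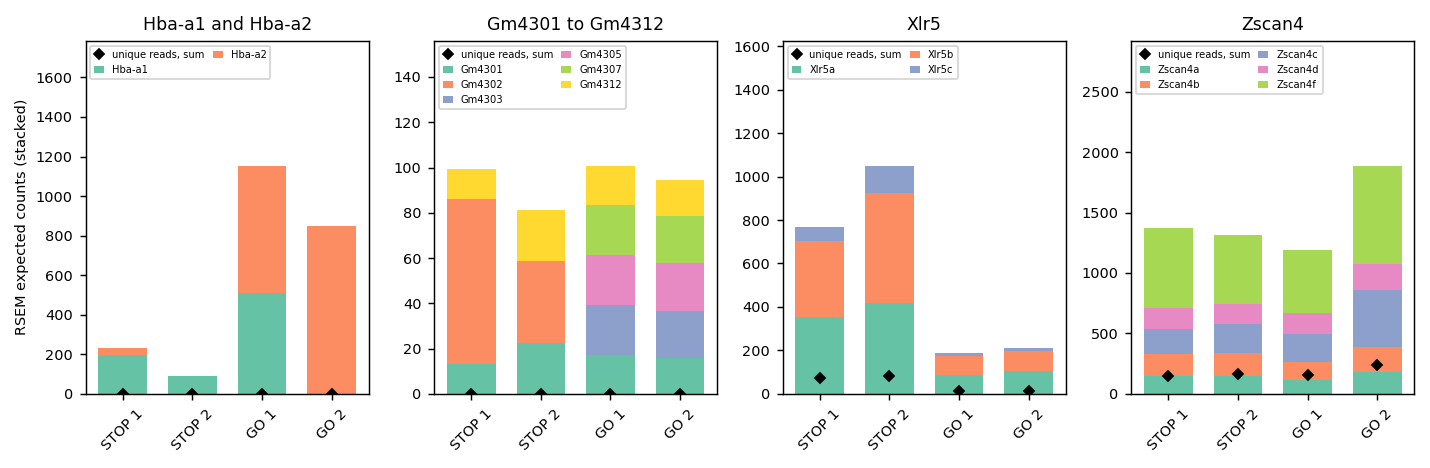
Stacked RSEM expected counts of the copies in 4 gene groups per library, with summed unique reads as diamonds. The division between Hba-a1 and Hba-a2 changes from library to library. Gm4302 has counts in the STOP libraries alone and Gm4303, Gm4305 and Gm4307 in the GO libraries alone. The Gm4301 to Gm4312 total stays between 81.2 and 101, whereas the Xlr5 total is higher in both STOP libraries.

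The spread between replicates of gaining genes was near that of other genes in STOP and wider in GO. Among genes averaging at least 100 expected counts, the median absolute log2 difference between the replicates of STOP was 0.166 over 929 gaining genes and 0.169 over 10448 others, and between those of GO 0.255 and 0.187. With unique reads the GO replicates also differed more in gaining genes (0.230 and 0.190).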

How the data were processed

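Poly-A RNA of the 4 sprout libraries was sequenced as 50-base single-end reads. Per the study's methods and the submitters' processing notes, the authors aligned reads to mm10 with STAR 2.5.0a, made HTSeq 0.6.1p1 counts of unique reads per gene, and ran RSEM 1.2.25. The deposited HTSeq values are raw counts, and the closing tally lines were left out of sums. The deposited RSEM tables hold expected counts per gene, and their TPM and FPKM columns, scaled by the authors' RSEM run for length and depth, were not tested. The overlap mode and strand setting of HTSeq and the RSEM settings are not given in the sources used here, so reads of overlapping and antisense genes may be divided differently by the 2 tools.

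Tables were joined by symbol. Families are symbol patterns, and a gene belongs to the first that it matches. Gain is the ratio of sums over 4 libraries, with no test, because both counts come from the same reads. STOP was compared with GO by edgeR 4.0.16 (R 4.3.3; TMM, filterByExpr with a minimum of 10, robust quasi-likelihood test, Benjamini-Hochberg) on unique reads and on rounded expected counts. Differences of the log2 ratio (pseudocount 2) were tested with limma 3.58.1 (trend, robust) among genes averaging 10 in either count. DESeq2 1.42.0 served as an alternative. Windows of 50 bases came from GENCODE M21 transcripts on GRCm38, and sequences from that genome. Scripts were tested on simulated data. With 12327030 or more unique reads per library, 3 reads correspond to at most 0.243 CPM, for counting error only.

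Named genes were, per family with a gaining gene, the 2 with the largest surplus, the 10 highest gains, the 5 largest deficits, the 10 whose fold change moved most, listed pairs, and the endothelial list. Some genes that meet these rules are not reported here. Other genes named were chosen after their values were seen. Members and lists were chosen with earlier results of these data known. Leaving out libraries, other filters, scalings and tests were tried as alternatives.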

Additional observations from a re-analysis of the deposited data

Results flagged for a closer look

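The tally that HTSeq keeps of alignments that are not unique was used in no comparison, and it was large in every library. Per unique read on genes, both STOP libraries held more of its lines, 1.179 and 1.201 (replicates 1 and 2), than the GO libraries, which had 0.927 (replicate 1) and 1.147 (replicate 2). A read can enter this tally once for each of its alignments, so a line is not a read. For each read by which expected counts exceeded unique reads there were 3.74, 3.73, 3.79 and 3.93 lines, in the same order.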

How the results depend on the processing

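The number of gaining genes, 1710, stayed between 1156 and 2195 under other thresholds, levels and scalings, and 1688 to 1733 without single libraries. The number of families with a ratio of at least 2, 17 of 40, was 17 to 18 without single libraries, 8 by the median of the member ratios and 9 on the CPM scale. Calls with unique reads, 565, came to 854 with no filter, and ranged from 148 to 887 when 1 library was left out (148 without STOP replicate 1, 154 without GO replicate 1). Calls with expected counts, 469, came to 843 with DESeq2 and 719 with no filter, and ranged from 2 to 696 when 1 library was left out (2 without STOP replicate 1, 26 without GO replicate 1). A group reduced to 1 library was assumed to vary like the other. Opposite signs, 633 genes, ranged from 509 to 839, and no gene was called in opposite directions in any of these fits. The gain difference, with 0 calls, gave 3 by limma without trend (Gm4303, Gm4305 and Gm4307) and 0 in each other setting. Where calls were lost, the cause was not tested. Of the genes named or meeting the naming rule, 50 were called with unique reads and 67 with expected counts, and none changed direction in these fits. Without STOP replicate 1, 19 of the former and 66 of the latter lost their call, and without GO replicate 1, 26 and 53. Without STOP replicate 2 it was 10 and 29, and without GO replicate 2, 9 and 23.

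Same-numbered replicates deviated in opposite ways (r = -0.39 for unique reads and -0.30 for expected counts). With 2 libraries per group both replicate numbers give the same r, so this check cannot decide whether the numbers pair the libraries. With the replicate number as a block, 44 genes were called with unique reads, 139 with expected counts, 634 had opposite signs, and 31 and 33 of these genes lost their call. With the crossed pairing, chosen after seeing the data, there were 1235 and 1114 calls and 644 opposite signs.

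Genes with few unique reads limit the comparison: 850 of the 1710 gaining genes averaged under 10.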

Other observations

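Several abundant transcripts outside the described families also differed between the counts, and those named here were chosen after their values were seen. Kcnq1ot1, the long noncoding RNA of an imprinted domain, had 1443, 955, 2391 and 1954 unique reads and 12340.2, 9106, 12249 and 12036 expected counts, and its log2 fold change of STOP over GO was -0.77 (SE 0.16) by unique reads and -0.12 (SE 0.17) by expected counts. Odc1, the first enzyme of polyamine synthesis, rose 5.08 times and kept its fold change, at 0.83 (SE 0.16) and 0.76 (SE 0.16). Lars2, the mitochondrial leucyl-tRNA synthetase, had 5775, 2733, 3947 and 1947 unique reads and 30069, 13898, 20516 and 9364 expected counts, although 0.0780% of its windows occurred in another gene. Adamts13, the protease that cleaves von Willebrand factor, had 0 unique reads in each library and 576, 439, 956 and 806 expected counts.

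A pair of noncoding snoRNA host genes, chosen after their values were seen, had fewer expected counts than unique reads. Gas5 had 6588, 3987, 5824 and 5140 unique reads and 4972, 2889, 4464 and 3951 expected counts, a ratio of 0.756, and Snhg1 a ratio of 0.633. Both ratios were below 1 in each of the 4 libraries.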
